A study of Mus musculus with 6 samples.

Results

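Plasma cell identity genes were followed in RNA of bone marrow LSK cells. These are sorted as negative for lineage markers and positive for Sca-1 and c-Kit, a fraction that holds hematopoietic stem cells and early progenitors. The set was fixed by name, with earlier results of these data known. It has 10 genes: Prdm1, Irf4, Xbp1, Jchain, Mzb1, Derl3, Tnfrsf17, Tnfrsf13b, Sdc1 and Slamf7. All 10 were found among the 14455 gene symbols listed in at least 1 library. Total RNA was sequenced from 4 libraries of C57BL/6 mice, 1 for each group. Old KO and old WT cells were labelled as Setd2 KO and wild type and were taken 8 months after pI-pC, the agent that induces deletion of a conditional allele. Young KO and young WT cells had the same genotypes and were taken 4 weeks after pI-pC. The series design calls the knockout conditional, and the sources used here name neither the Cre line nor the number or age of the mice. With 1 library per group no difference has a replicate check, so no SD or p-value is given, and all values describe these libraries alone.

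Plasma cells are the antibody-secreting end stage of the B cell lineage, and long-lived ones reside in the bone marrow. The transcription factors Blimp-1 (Prdm1) and Irf4 drive the change from B cell to plasma cell, and Xbp1 then expands the endoplasmic reticulum that folds and exports antibody. Receptors of the BAFF and APRIL cytokines keep the cells alive. LSK cells are sorted as lineage-negative, and these genes are not markers of stem cells.

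Values are FPKM, fragments per kilobase of transcript corrected for library size, divided by a factor per library so that the median gene was equal. The files list only genes at an FPKM of 0.5 or more, and a gene missing from a file is called not listed. Differences are of log2(scaled FPKM + 1), which understates the change of low genes, and a gene was counted as higher or lower from a difference of 1, that is 2-fold on that scale. Folds are ratios of scaled FPKM. A gene counted as measured when it reached 1 in at least 1 of the 2 libraries compared.

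The libraries listed 13204 genes in old KO, 13327 in old WT, 13182 in young KO and 13312 in young WT. From the spacing of low values, an FPKM of 5 on a 1 kb transcript stood for 90.3, 89.3, 45.2 and 47.9 counted units in the same order, a counting error of 10.5%, 10.6%, 14.9% and 14.5%. Of the summed FPKM, immunoglobulin segments took 4.63% in old KO, 26.7% in old WT, 0.861% in young KO and 0.617% in young WT. The gene-level value of Setd2 was 15.5 in old KO and 15.3 in old WT, and 12.4 in young KO and 14.1 in young WT, which does not check the deletion of single exons. Kit, which marks the sorted fraction, stood at 41.1 in old KO, 44.5 in old WT, 52.9 in young KO and 61.0 in young WT. Ly6a, which encodes Sca-1, was far lower, at 4.18, 8.80, 3.17 and 4.86 in that order. The old pair expressed Xist, at 279 in KO and 291 in WT, and the young pair did not, whereas the Y-linked Eif2s3y was listed only in young KO, at 11.9, and young WT, at 9.91. Age and sex of the mice therefore cannot be told apart in these libraries.

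Promoter windows of RefSeq (GRCm38.p6, 250 bases before to 50 after the start of transcription) were matched for 9 of the 10 genes, all but Mzb1. Those of Jchain, Derl3 and Tnfrsf17 are shown, the first because that gene differed most and the others because they held a match to 1 of the 6 motifs searched. They lie on chromosome 5 at chr5:88527848-88528147 (minus strand), on chromosome 10 at chr10:75893148-75893447 (plus strand) and on chromosome 16 at chr16:11313559-11313858 (plus strand). Each is written 5′ to 3′ along the gene, with the motif match in capitals.
Jchain: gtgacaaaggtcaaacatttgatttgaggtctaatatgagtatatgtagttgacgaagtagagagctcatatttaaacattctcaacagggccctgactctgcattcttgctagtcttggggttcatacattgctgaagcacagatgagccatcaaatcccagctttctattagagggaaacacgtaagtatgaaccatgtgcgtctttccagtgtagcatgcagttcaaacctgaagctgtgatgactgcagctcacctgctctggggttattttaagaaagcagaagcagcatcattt
Derl3: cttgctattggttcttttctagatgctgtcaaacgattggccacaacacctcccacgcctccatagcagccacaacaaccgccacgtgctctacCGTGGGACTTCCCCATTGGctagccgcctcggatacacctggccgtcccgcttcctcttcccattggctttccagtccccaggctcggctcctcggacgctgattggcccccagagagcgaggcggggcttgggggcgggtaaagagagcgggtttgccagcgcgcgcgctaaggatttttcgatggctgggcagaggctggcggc
Tnfrsf17: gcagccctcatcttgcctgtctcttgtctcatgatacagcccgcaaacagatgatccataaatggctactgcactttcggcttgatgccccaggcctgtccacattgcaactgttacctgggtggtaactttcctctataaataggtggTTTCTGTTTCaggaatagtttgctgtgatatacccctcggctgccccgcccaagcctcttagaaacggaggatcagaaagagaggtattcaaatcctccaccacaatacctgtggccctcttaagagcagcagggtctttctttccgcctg

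Both strands were searched and no 2 matches overlapped. Derl3 held the endoplasmic reticulum stress element, that is CCAAT and CCACG with 9 bases between them, on the opposite strand at bases 95 to 113 of the window, where it reads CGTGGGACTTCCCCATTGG. This element is known to be bound by the stress factor ATF6 and occurred in 0.119% of 32851 promoter windows of the same length. Tnfrsf17 held the interferon-stimulated response element, that is GAAA and GAAA with 2 bases between them, on the opposite strand at bases 150 to 159. This is a motif of the IRF family and was present in 3.44% of all windows. The other motifs were the unfolded protein response core TGACGTG, the octamer ATTTGCAT, the Ets-IRF composite (GGAA and GAAA with 2 bases between them) and the Blimp-1 motif AGNGAAAG. These letters were in none of the 9 windows and in 2.01%, 1.74%, 2.72% and 8.63% of all windows in that order. The Jchain window held no match to any of the 6 motifs.

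The main comparison asked how these genes differed between old cells labelled Setd2 KO and old WT cells. All 10 genes were lower in old KO than in old WT, 9 of them by 2-fold or more, with a median difference of -2.22. Of all 12478 genes measured, 2.66% were 2-fold lower, and 1.21% when immunoglobulin and T cell receptor segments were left out. The 10 genes were chosen with earlier results of these data known, so setting their count beside these shares is no independent check. The median over all measured genes was 0.00. The differences ran from -3.73 for Jchain to -0.77 for Tnfrsf13b, the only gene of the 10 that did not reach 2-fold. In bulk RNA, fewer plasma cells in the sorted fraction and less of each RNA per cell cannot be told apart.

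**Figure D1:**
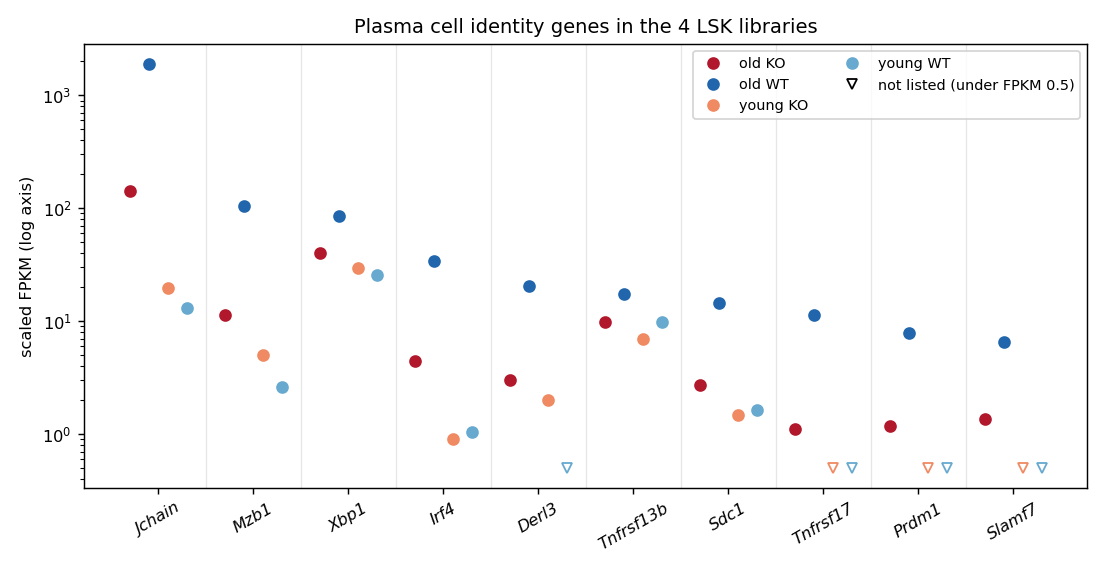
Scaled FPKM of the 10 plasma cell identity genes (log axis) in each library, with genes ordered by their level in old WT; filled points are single libraries and open triangles mark genes a file does not list. Old WT is the highest library for every gene, and old KO lies below it, from 7.47% of its level for Jchain to 56.2% for Tnfrsf13b.

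Among the transcription factors, Prdm1 (ENSMUSG00000038151, chromosome 10, 44437177 to 44528501; all loci are in mm10) stood at a scaled FPKM of 1.18 in old KO and 7.84 in old WT and was not listed in young KO or young WT. This repressor shuts off the B cell programme, and its level was 6.65-fold lower in old KO than in old WT. Irf4 (ENSMUSG00000021356, chromosome 13, 30749226 to 30766927) stood at 4.41 in old KO, 33.9 in old WT, 0.905 in young KO and 1.05 in young WT. Irf4, a factor that plasma cells need to survive, was 7.68-fold lower in old KO than in old WT, and the young libraries lay at or near 1. Xbp1 (ENSMUSG00000020484, chromosome 11, 5520659 to 5525893) stood at 40.5 in old KO, 85.4 in old WT, 29.5 in young KO and 25.4 in young WT. Xbp1 was high in all 4 libraries and only 2.11-fold lower in old KO, a log2 difference of -1.06, just past the 2-fold line. The gene-level value does not separate the spliced, active form of Xbp1 from the unspliced form.

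The antibody-exporting machinery held both of the most abundant genes of the set in old WT, Jchain and Mzb1. Jchain (ENSMUSG00000067149, chromosome 5, 88519809 to 88527891), which links IgA and IgM into polymers, had a scaled FPKM of 141 in old KO, 1891 in old WT, 19.7 in young KO and 13.0 in young WT. It was the 7th most abundant symbol of the old WT library by FPKM and the 163rd of old KO, and it was 13.4-fold lower in old KO. Mzb1 (ENSMUSG00000024353, chromosome 18, 35647266 to 35649367), a chaperone of the endoplasmic reticulum that helps assemble immunoglobulin, stood at 11.2 in old KO, 106 in old WT, 4.98 in young KO and 2.60 in young WT. Its level was 9.41-fold lower in old KO than in old WT, and all 4 libraries listed it. Derl3 (ENSMUSG00000009092, chromosome 10, 75893398 to 75895941), a member of the derlin family that moves misfolded proteins out of the endoplasmic reticulum, stood at 3.05 in old KO, 20.4 in old WT and 2.03 in young KO and was not listed in young WT. The gene whose promoter held the stress element above was 6.71-fold lower in old KO than in old WT.

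The surface proteins spanned the widest range of folds. Tnfrsf17 (ENSMUSG00000022496, chromosome 16, 11313812 to 11320074), which encodes the survival receptor BCMA, stood at 1.11 in old KO and 11.4 in old WT and was listed in neither young library. It was 10.3-fold lower in old KO, second to Jchain by this ratio. For a 1 kb transcript, counting alone would give the log2 of this ratio a 95% interval of ± 0.67. On the log2(scaled FPKM + 1) scale its difference was -2.56, after Jchain, Mzb1, at -3.12, and Irf4, at -2.69. Sdc1 (ENSMUSG00000020592, chromosome 12, 8771323 to 8793715), the proteoglycan CD138 used to sort plasma cells, stood at 2.75 in old KO, 14.5 in old WT, 1.49 in young KO and 1.65 in young WT, and was 5.26-fold lower in old KO. Slamf7 (ENSMUSG00000038179, chromosome 1, 171632403 to 171653035), a receptor that natural killer cells also carry, stood at 1.37 in old KO and 6.49 in old WT and was not listed in the young libraries. It was 4.75-fold lower in old KO, and its locus overlaps the predicted gene Gm37787 in the files, from which its reads may not be separated. No other gene of the 10 overlapped a listed gene. Tnfrsf13b (ENSMUSG00000010142, chromosome 11, 61126755 to 61149372), which encodes TACI, a receptor for BAFF and APRIL that other B lineage cells also carry, stood at 9.78 in old KO, 17.4 in old WT, 6.99 in young KO and 9.90 in young WT. Its old KO value of 9.78 lay beside that of young WT, and it was 1.78-fold lower in old KO than in old WT.

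**Figure D2:**
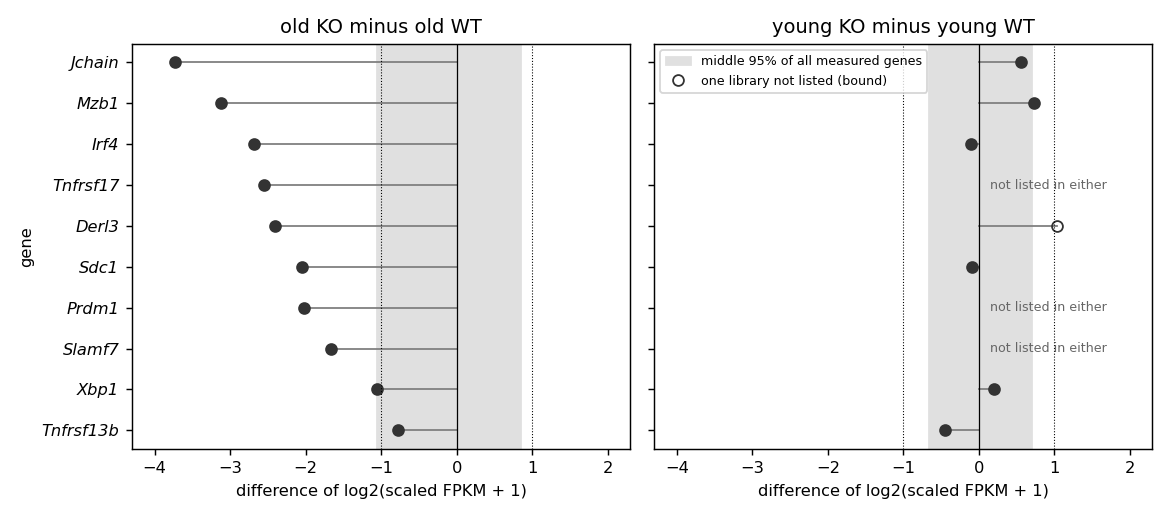
Difference of log2(scaled FPKM + 1) for each gene, old KO minus old WT on the left and young KO minus young WT on the right; dotted lines mark 2-fold, grey bands the middle 95% of all measured genes, and open points a bound where 1 library did not list the gene. All 10 differences are negative in old cells, from -3.73 to -0.77, and the 7 that could be given in young cells lie between -0.45 and 1.04.

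In young cells the differences between genotypes were smaller. Prdm1, Tnfrsf17 and Slamf7 were listed in neither young library, so they have no difference. Of the other 7, 4 lay above 0 and 3 below, with a median of 0.21. Derl3 was the only one to reach 2-fold, at a bound of 1.04, since it was at least 4.31-fold higher in young KO than the listing limit allows for young WT. Of all 12409 genes measured in young cells, 1.02% were 2-fold higher and 0.701% were 2-fold lower. Mzb1 was 1.91-fold and Jchain 1.51-fold higher in young KO, differences of 0.73 and 0.56. For a 1 kb transcript, counting alone would give the log2 of these folds, taken without the added 1, a 95% interval of ± 0.69 and ± 0.33. The differences of 0.73 and 0.56 include the added 1 and are not on that scale, and the transcript lengths are not in the files. Xbp1 differed by 0.21, Sdc1 by -0.09, Irf4 by -0.11 and Tnfrsf13b by -0.45.

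The study's ages also allow old cells to be set against young cells of the same genotype, in comparisons that use the same libraries again and in which sex differs as well. In WT, all 10 genes were higher in old than in young cells, 9 by 2-fold, with a median of 2.83, where 4.22% of 12569 measured genes were 2-fold higher. Jchain was 145-fold, Mzb1 40.6-fold and Irf4 32.2-fold higher in old WT than in young WT. Derl3 was at least 43.5-fold higher, Tnfrsf17 at least 24.3-fold, Prdm1 at least 16.7-fold and Slamf7 at least 13.8-fold. Sdc1 was 8.78-fold, Xbp1 3.35-fold and Tnfrsf13b 1.76-fold higher.

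In KO, all 10 genes were again higher in old than in young cells, but 3 reached 2-fold, with a median of 0.56, where 4.95% of 12534 measured genes were 2-fold higher. These 3 were Jchain, at 7.19-fold, Irf4, at 4.87-fold, and Mzb1, at 2.26-fold. Mzb1 had a log2 difference of 1.03 and did not reach 1 with upper-quartile scaling, at 0.93, or with equal library totals outside antigen receptor segments, Gm26917 and Gm42418, at 0.84. Against the listing limit, Slamf7 was at least 2.68-fold, Prdm1 at least 2.31-fold and Tnfrsf17 at least 2.18-fold higher in old KO by the ratio, which on the log2(scaled FPKM + 1) scale stayed below 1. The old KO library therefore lay between old WT and the young libraries for 9 of the 10 genes, and for Tnfrsf13b between old WT and young KO but level with young WT.

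**Figure D3:**
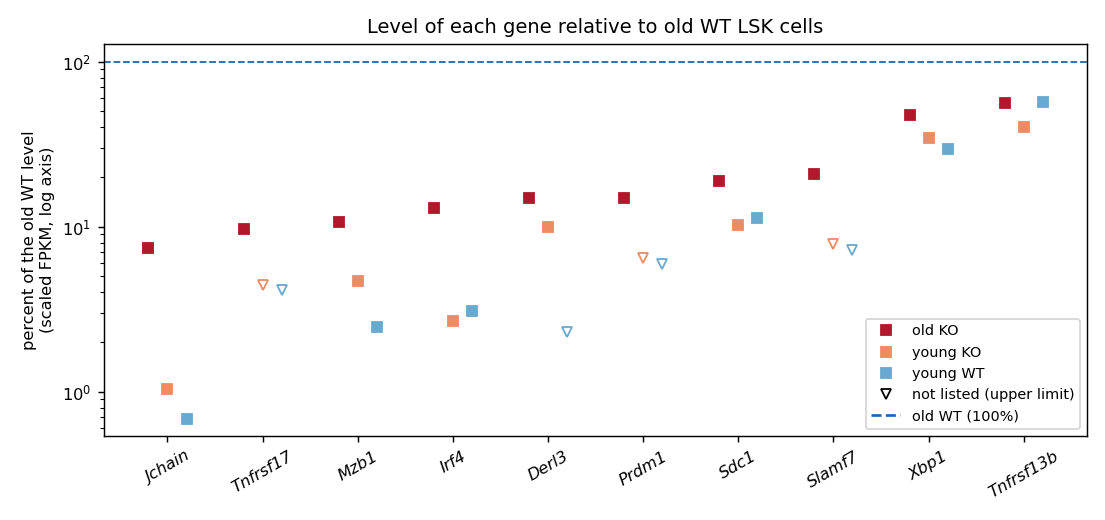
Level of each gene in old KO, young KO and young WT as a percent of its old WT level (scaled FPKM, log axis, dashed line at 100%); open triangles are upper limits where a file does not list the gene. Old KO held 7.47% of the old WT level of Jchain and 9.74% of that of Tnfrsf17, against 47.4% for Xbp1 and 56.2% for Tnfrsf13b.

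The genes were not lower by one common factor. Old KO kept 7.47% of the old WT level of Jchain, 9.74% of Tnfrsf17, 10.6% of Mzb1, 13.0% of Irf4, 14.9% of Derl3, 15.0% of Prdm1, 19.0% of Sdc1 and 21.0% of Slamf7. Xbp1 and Tnfrsf13b stood apart at 47.4% and 56.2%. These were also the genes with the highest young levels relative to old WT: young KO held 34.6% of the old WT level of Xbp1 and 40.2% of that of Tnfrsf13b, and young WT 29.8% and 56.9%. Young KO held 1.04% of the old WT level of Jchain and young WT 0.689%. Read per length within a library, Xbp1 was 28.6% of Jchain in old KO, 4.51% in old WT, 150% in young KO and 195% in young WT. Mzb1 was 7.96% of Jchain in old KO, 5.60% in old WT, 25.3% in young KO and 20.0% in young WT. The 10 genes together held 0.0814% of the summed FPKM of old KO, 0.695% of old WT, 0.0271% of young KO and 0.0246% of young WT.

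A wider list of 25 genes found in plasma cells split into those that followed the set and those that did not. In old KO, 11 of the 25 were 2-fold lower and none 2-fold higher, with a median of -0.46. Of these genes, Ccr10, Fam46c, Cacna1h and St6gal1 were known from earlier results of these libraries, so the count is not independent of them. Ccr10, a chemokine receptor of IgA plasma cells, was not listed in old KO and stood at 8.16 in old WT, at least 16.0-fold lower. Fam46c, a poly(A) polymerase that stabilises immunoglobulin messages, stood at 5.40 in old KO and 34.1 in old WT. St6gal1, which adds sialic acid to glycoproteins, stood at 1.84 and Cacna1h, a calcium channel gene, at 0.972 in old KO, against 14.4 and 7.98 in old WT. In young cells 18 of the 25 were measured, of which none was 2-fold higher and 1 was 2-fold lower, with a median of 0.16. In WT, 11 of the 25 were 2-fold higher in old than in young cells, with a median of 0.81. In KO, 3 of 22 were, with a median of 0.23.

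Genes of the endoplasmic reticulum and targets of Xbp1 differed less than the identity genes. Of 31 measured, 2 were 2-fold lower in old KO than in old WT and none higher, with a median of -0.05. They were Herpud1, which acts in the disposal of misfolded proteins, at 35.0 in old KO and 76.0 in old WT, and Spcs1, a signal peptidase subunit, at 3.35 and 8.61 in the same order. Edem1, which targets misfolded glycoproteins, stood at 15.7 in old KO and 25.8 in old WT, and Sec61b, a subunit of the translocation channel, at 25.1 in old KO and 17.7 in old WT. With age, 27 of the 31 were higher in old WT than in young WT, 7 by 2-fold, at a median of 0.47. In old KO against young KO, 26 of 31 were higher, 1 by 2-fold, at a median of 0.41. The medians over all measured genes were -0.01 and -0.00 in these age comparisons. In young cells none of the 31 differed by 2-fold between genotypes, at a median of 0.09.

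Antibody constant region genes had the largest median difference of the lists described here. Of 11 measured, 9 were 2-fold lower in old KO and none 2-fold higher, with a median of -3.40. Igha stood at 480 in old KO and 5796 in old WT, Ighg1 at 3.99 and 154, Ighg2b at 11.6 and 247, and the light chain Iglc2 at 7.17 and 154, with old KO first each time. Ighm and Ighg3, which were chosen after their values were seen, did not follow them. Ighm stood at 649 in old KO and 490 in old WT, with 138 in young KO and 66.3 in young WT. Ighg3 stood at 20.7 in old KO and 18.3 in old WT, with 4.06 in young KO and 0.726 in young WT.

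Genes of the B cell stage were mostly low. Ms4a1, Cd22, Cr2 and Bank1 were listed in no library. Of the 12 B cell markers measured in old cells, 2 were 2-fold lower in old KO and none higher, with a median of -0.02. They were Cd79a, the signalling chain of the antigen receptor, at 3.84 in old KO and 23.4 in old WT, and Fcrla, not listed in old KO and at 2.44 in old WT. Blnk, an adaptor of B cell receptor signalling, stood at 1.54 in old KO and 3.52 in old WT, and Rag1, the recombinase of antigen receptor genes, at 1.72 in old KO, unlisted in old WT. The 18 markers summed to a scaled FPKM of 34.7 in old KO, 62.4 in old WT, 22.4 in young KO and 28.0 in young WT.

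Genes that plasma cells are known to repress lay the other way between the old libraries, but not between old WT and young WT. Of 8 measured, 3 were 2-fold higher in old KO and none 2-fold lower, with a median of 0.60, where 1.63% of all genes were 2-fold higher. Id3, an inhibitor of E proteins, stood at 4.09 in old KO and was not listed in old WT. The transcription factors Irf8 and Spi1 stood at 37.5 and 24.3 in old KO and at 11.7 and 11.1 in old WT, and both are also genes of myeloid cells. Ets1 went with the plasma cell genes, at 1.82 in old KO and 4.53 in old WT. Pax5, the factor that Blimp-1 represses, was at most 1.26 in any library. In old WT against young WT, the 6 measured genes had a median of -0.09, and the list summed to 31.7 and 33.8. In old KO against young KO, 8 were measured, with a median of 0.49 and sums of 75.9 and 31.3.

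Ligands and partner receptors of survival signals stood at a scaled FPKM of 11.5 or less in both old libraries. Tnfsf13, which encodes APRIL, stood at 3.38 in old KO and 2.92 in old WT, and Tnfsf13b, which encodes BAFF, was listed in no library. The BAFF receptor gene Tnfrsf13c stood at 0.890 in old KO and 2.10 in old WT. The interleukin-6 receptor chains Il6ra and Il6st stood at 9.67 and 11.5 in old KO and at 6.41 and 7.55 in old WT. None of the 4 measured differed by 2-fold, and their median was 0.34.

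**Figure D4:**
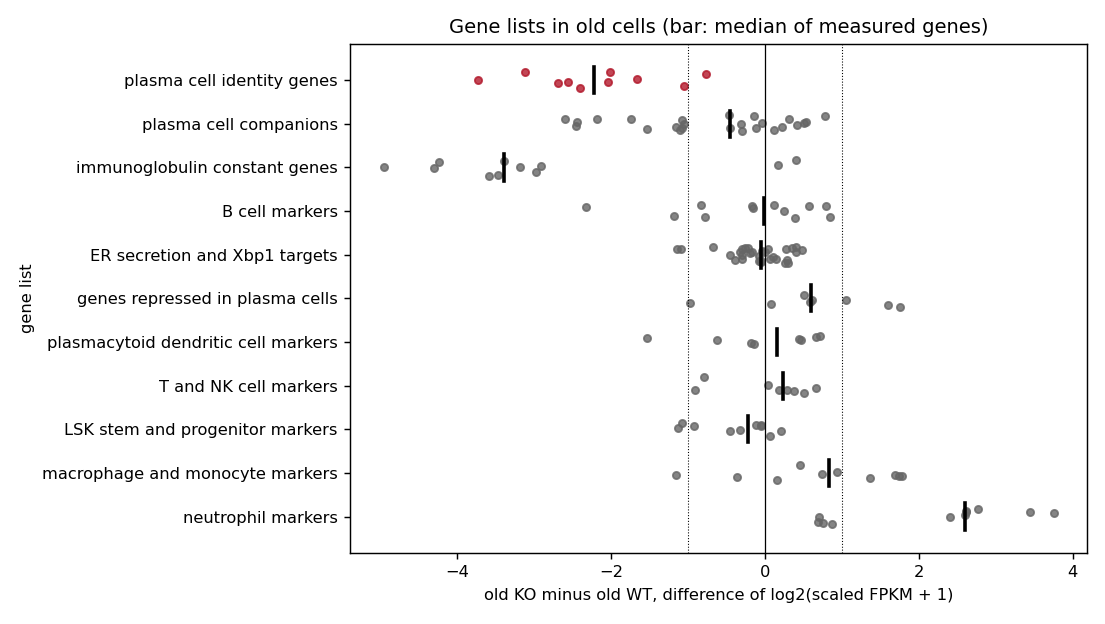
Old KO minus old WT for the measured genes of 11 lists; each point is 1 gene, black bars are list medians and dotted lines mark 2-fold. The plasma cell identity genes have a median of -2.22 and the constant region genes of -3.40, whereas the B cell markers centre at -0.02 and the neutrophil markers at 2.60.

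Some of the 10 genes are also expressed by other blood cells, so markers of those cells are given. Of the plasmacytoid dendritic cell list, Siglech, Ccr9, Pacsin1 and Klk1 were listed in no library. Its 8 measured genes had a median of 0.15 in old cells, with Ly6d, a surface protein also found on lymphoid progenitors, 2-fold lower at 4.86 in old KO and 16.0 in old WT. Of these 8, 4 lay above 0 and 4 below, and Bst2 had the highest level, at 33.4 in old KO and 23.9 in old WT. The 9 measured dendritic cell genes had a median of 0.21 and none differed by 2-fold, with Clec9a at 2.00 in old KO and unlisted in old WT. Of the T and NK cell list, Cd4, Cd8a, Zap70 and Eomes were listed in no library, and the 8 measured genes had a median of 0.24, none at 2-fold. Of these 8, 6 lay above 0 and 2 below. Nkg7 had the highest level, at 38.3 in old KO, 33.6 in old WT, 47.9 in young KO and 58.5 in young WT. Prf1, which encodes perforin, was among the 2 below, at 0.798 in old KO and 2.39 in old WT.

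Between the old libraries, most myeloid markers lay the other way from the plasma cell genes. All 11 neutrophil markers were higher in old KO than in old WT, 7 by 2-fold, at a median of 2.60. The list summed to 1727 in old KO and 903 in old WT, against 673 in young KO and 720 in young WT. Elane and Mpo held most of each sum. Elane stood at 799 in old KO, 491 in old WT, 300 in young KO and 371 in young WT, and Mpo at 603, 373, 368 and 345 in that order. Of the 11 genes, 6 were listed in young KO and 4 in young WT. Camp, a granule gene, stood at 40.8 in old KO and 2.86 in old WT. Of 10 macrophage and monocyte markers, 4 were 2-fold higher and 1 was 2-fold lower, at a median of 0.83, with Csf1r at 29.1 in old KO and 8.31 in old WT. Among 11 erythroid markers, 6 lay above 0 and 5 below, at a median of 0.38, and 3 were 2-fold higher and 2 were 2-fold lower. Hbb-bs stood at 28.1 in old KO and 12.2 in old WT, and Car1 went the other way, at 52.6 in old KO and 123 in old WT. The 10 markers of LSK cells had a median of -0.22, with 2 genes 2-fold lower, among them Hlf, at 6.20 in old KO and 14.7 in old WT. With age, the neutrophil markers went the same way as the plasma cell genes. In old WT against young WT, 8 of 9 measured were higher, 5 by 2-fold, at a median of 1.06. In old KO against young KO, all 11 were higher, 8 by 2-fold, at a median of 3.21. The 9 macrophage and monocyte markers measured had medians of 0.00 and 0.51 in these age comparisons. The part of any of these shifts in the plasma cell result was not tested.

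The pattern most like that of the 10 genes was sought among 7073 other genes that reached an FPKM of 5. Likeness was the distance, over the 4 libraries, between a gene's centred log2 values and the mean of the 6 identity genes listed in all of them. The nearest were Fam46c, at a distance of 0.42, St6gal1, at 0.46, Cd79a, at 0.55, Pou2af1, a B lineage coactivator, at 0.61, and Gpx1, a glutathione peroxidase, at 0.75. Pou2af1 stood at 8.06 in old KO, 29.3 in old WT, 1.98 in young KO and 1.07 in young WT. Gpx1, which was on none of the lists, stood at 26.2 in old KO, 101 in old WT, 15.4 in young KO and 16.6 in young WT. The median candidate lay at 2.82. Of the identity genes, Tnfrsf17 lay at 0.59 and Irf4 at 0.60, while Jchain, at 2.83, and Tnfrsf13b, at 2.06, lay farthest because of the size of their differences. Irf4, Jchain and Tnfrsf13b were among the 6 genes that formed the mean. Tnfrsf17 and Cd79a were listed in neither young library and entered there at the value set for unlisted genes.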

How the data were processed

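Each of the 4 groups of sorted LSK cells had 1 total RNA library, prepared from 100 ng per the labels' protocols. The 2 bisulfite sequencing samples were not analysed here. The authors deposited 1 FPKM per gene with its identifier, symbol and locus, per the file headers. Mouse build mm10 (GRCm38), HISAT2 2.0.4, StringTie 1.3.0, Trimmomatic, FastQC and CASAVA are listed, without saying what each did, per the submitters' processing notes. No source used here states whether strand entered the counting.

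Of 14468 identifiers, 14382 were found in a table of symbols, 18 symbols turned into dates were restored, and rows of the 13 repeated symbols were added up. Library factors were medians of ratios over 10935 genes at an FPKM of 1 or more in all 4 libraries: 0.979 for old KO, 0.982 for old WT, 0.981 for young KO and 1.06 for young WT. Unlisted genes were set to an FPKM of 0.5, so folds against them are bounds. Lists are described by counts and medians. Depth came from FPKM times locus length of genes under 1500 bp, of which 64.2% to 73.2% lay within 0.05 steps of a whole multiple, where chance gives 10%. Odd multiples made up 2.68% or less of these in young and 55.3% or more in old libraries, so 2 steps were counted as a unit in young libraries and 1 step in old ones, and the depth gap rests on that. Counting errors do not cover duplicate reads.

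The 10 genes and the 13 lists, of 192 entries, were chosen with earlier results of these data known. Named genes were the 10, up to 4 of each list with the largest difference in old cells, and the 5 most alike in pattern, leaving out antigen receptor, mitochondrial, small RNA and predicted genes, and not every gene so named is reported here. Genes named as listed in no library, Setd2, Gm37787, Pax5, Ighm, Ighg3, Nkg7, Bst2, Elane, Mpo, Kit, Xist and Eif2s3y were added after their values were seen. Scaling, pseudocount, the value of unlisted genes and the filter were varied. The steps were tested on simulated data. Python 3.11.15 with pandas 2.3.3, numpy 2.4.6 and matplotlib 3.10.9 was used.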

Additional observations from a re-analysis of the deposited data

Results flagged for a closer look

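Of the 10 plasma cell identity genes, 7 were measured at both ages. Of these, 4 were lower in old KO than in old WT and higher in young KO than in young WT, and 3 were lower in KO at both ages. The difference of the differences on the log2 scale was -4.29 for Jchain, -3.86 for Mzb1, -3.45 for Derl3 and -1.27 for Xbp1. With 1 library per group this difference was not tested. Among 11873 genes measured at both ages, 24.2% were lower in old KO and higher in young KO. All 7 identity genes were lower in old KO, so their split into 4 and 3 rests on the young sign alone. The 24.2% counts both signs and is therefore not a like background for that split. The old parts were -3.73, -3.12, -2.41 and -1.06 and the young parts 0.56, 0.73, 1.04 and 0.21 in the same order, and the young part of Derl3 is a bound. The young part of Xbp1 lay within the counting interval of ± 0.25 for a 1 kb transcript and was 0.09 without scaling. Among the 3 genes lower at both ages, Irf4 and Sdc1 had young parts of -0.11 and -0.09, folds of 1.16 and 1.11. Their counting intervals for a 1 kb transcript were ± 1.32 and ± 1.04 on the log2 ratio, so their young sign is not resolved.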

How the results depend on the processing

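No paired analysis was possible because each group had 1 library. For the same reason no replicate could be left out. No difference of a named gene of the set that reached 2-fold changed sign under any of the 9 alternatives. The pseudocount, filter and unlisted-gene settings cannot turn such a sign, so only the scaling settings could have done so. The number 2-fold lower in old KO was 9 of 10, and 5 of 6 over genes listed in all 4 libraries. It was 7 of 10 with a pseudocount of 5, where Xbp1, at -0.99, and Slamf7, at -0.85, no longer reached 2-fold. The share over all genes was taken at the main setting alone, so counts under the alternatives have no like background. The median over the 10 genes was -2.22, against -2.67 with a pseudocount of 0.1 and -1.38 with one of 5. In young cells the 1 gene at 2-fold, Derl3, was lost, leaving 0, without scaling, with a pseudocount of 5, with a minimum of 5 and over genes listed in all 4 libraries. For old WT against young WT the median of 2.83 became 4.07 with a pseudocount of 0.1 and 1.58 with one of 5, and 5 of 6 genes were 2-fold higher over genes listed in all 4. In old KO against young KO, 3 genes at 2-fold became 5 with a pseudocount of 0.1, 1 with one of 5 and 6 with unlisted genes at 0. They became 2 with upper-quartile scaling and with equal totals outside antigen receptor segments, Gm26917 and Gm42418, where Mzb1 stood at 0.93 and 0.84, and also 2 with a minimum of 5. The 4 genes of opposite sign at the 2 ages became 2 with a minimum of 5. Fewer genes were counted by construction in the alternatives with fewer genes. A larger pseudocount narrows every log2 difference by arithmetic, and a smaller one widens it. Unlisted genes at 0 likewise raised Prdm1, Tnfrsf17 and Slamf7 in old KO against young KO, to 1.12, 1.08 and 1.24. For the scaling settings the cause was not tested. Depth limits the young values: at an FPKM of 1 on a 1 kb transcript the counting error was 33.3% in young KO and 32.3% in young WT.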
